A study of Mus musculus with 4 samples.

Results

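The numbered Zfp genes are mouse genes named Zfp with a 3-digit number, most of which encode zinc-finger proteins. The files list 286 such genes among 23312, and 211 of them, described here, were selected on their level, a 4-library mean no lower than 1 FPKM (fragments per kilobase of transcript, scaled to the mapped fragments of the library). Levels are therefore given as a description; the difference between genotypes was not used. RNA was sequenced from B220+CD43+ pro-B cells, sorted from the bone marrow of C57BL/6 mice, giving 2 Cnot3 fl/fl libraries and 2 Cnot3 +/+ libraries. Cnot3 fl/fl mice carry loxP-flanked alleles of Cnot3, a subunit of the CCR4-NOT complex that removes poly(A) tails from mRNA, and Cnot3 +/+ mice carry wild-type alleles. Mice of both genotypes carried RERTCre, a tamoxifen-inducible Cre recombinase that is not limited to B cells, and both received 1 mg tamoxifen on days 1, 2, 4 and 7 before analysis on day 10. The labels give neither age nor sex, and the 2 replicates of a genotype are individual mice by the series' design. Below, a pair of values followed by "against" and another pair gives replicates 1 and 2 of Cnot3 fl/fl, then replicates 1 and 2 of Cnot3 +/+.

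The classical C2H2 zinc finger is a short protein fold in which 2 cysteines and 2 histidines hold a zinc ion, and arrays of such fingers read DNA base by base. Many of these proteins also carry a KRAB box, which recruits the corepressor Trim28 and, through it, the histone methyltransferase Setdb1, and many KRAB proteins silence transposable elements and imprinted loci. The genes lie in tandem clusters that arose by duplication. Messages of transcription factors, zinc-finger genes among them, are on average short-lived, and CCR4-NOT starts the decay of most mRNAs.

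A coding sequence was found in GENCODE M21 for 209 of the 211 genes. A C2H2 finger was counted where the translated sequence held 2 cysteines 2 to 4 residues apart, then 12 residues, then 2 histidines 3 to 5 residues apart. A KRAB box was counted where at least 9 of 12 conserved residues of its A part were present at their usual spacing. The count separated the genes clearly, with 97 genes at 10 or more matching residues, 2 at 9, 6 at 7 or 8 and 104 at 6 or fewer. By this count 99 genes encoded a KRAB box and 110 did not. The 209 genes encoded 2067 fingers in all, with a median of 9 per gene and a maximum of 36 in Zfp142, and 104 genes encoded 10 or more. No finger of this pattern was found in 5 genes, which included Zfp259 and Zfp330. The 99 KRAB genes encoded a median of 11 fingers, and the 110 others a median of 7.

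The coding DNA of the first finger is shown for 6 of the genes whose RNA differed between the genotypes, to let the bases between the zinc-binding codons be compared; the spacing of those codons was set by the search pattern. Capitals mark the codons of the 2 cysteines and 2 histidines, and each sequence reads 5′ to 3′ on the coding strand (GENCODE M21, GRCm38).
Zfp658: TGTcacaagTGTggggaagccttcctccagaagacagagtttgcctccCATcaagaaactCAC
Zfp664: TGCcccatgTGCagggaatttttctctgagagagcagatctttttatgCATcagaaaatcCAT
Zfp428: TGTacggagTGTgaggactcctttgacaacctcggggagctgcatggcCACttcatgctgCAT
Zfp706: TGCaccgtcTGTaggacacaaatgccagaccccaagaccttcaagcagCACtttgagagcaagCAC
Zfp467: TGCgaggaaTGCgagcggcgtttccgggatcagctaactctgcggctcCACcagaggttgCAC
Zfp575: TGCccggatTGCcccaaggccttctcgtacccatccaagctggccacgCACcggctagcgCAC
On GRCm38 these lie in coding exons at chr7:43573209-43573271 (plus strand, Zfp658), chr5:124885556-124885618 (plus, Zfp664), chr7:24515450-24515512 (plus, Zfp428), chr6:48439171-48439233 (minus, Zfp467) and chr7:24585978-24586040 (minus, Zfp575). The finger of Zfp706 is split by an intron and spans chr15:37001896-37003700 on the minus strand.

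Of these 6 genes only Zfp658 encoded a KRAB box by the count above. Its A part is shown beside that of Zfp868, the KRAB gene with the largest fitted difference downwards (it did not pass the test), with the codons of the matching conserved residues in capitals.
Zfp658: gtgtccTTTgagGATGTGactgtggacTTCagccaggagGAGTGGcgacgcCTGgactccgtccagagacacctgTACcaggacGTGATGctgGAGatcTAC
Zfp868: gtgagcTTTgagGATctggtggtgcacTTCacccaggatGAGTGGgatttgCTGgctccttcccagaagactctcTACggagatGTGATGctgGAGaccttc
These lie in the third coding-transcript exon of each gene, at chr7:43567274-43567375 on the plus strand (GRCm38, Zfp658) and chr8:69613767-69613868 on the minus strand (Zfp868). Zfp658 matched 12 and Zfp868 matched 10 of the 12 residues. In both genes the first finger lies in exon 5, which is the last.

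The libraries had between 14684 and 15126 genes above 0 FPKM, and every member was above 0 in all 4. The files hold no counts, so absolute depth was unknown. The spacing of low values gave estimated depths relative to Cnot3 fl/fl replicate 2. These were 0.955, 0.748 and 0.9005 for Cnot3 fl/fl replicate 1 and Cnot3 +/+ replicates 1 and 2. Only 13.3%, 13.1% and 11.8% of the low genes lay at the ratio used, in the same order. One library stood apart, since Cnot3 +/+ replicate 1 had the Y-linked gene Ddx3y at 15.99 FPKM and Xist at 0.024 FPKM, while the other 3 libraries had Ddx3y at or near 0 and Xist at 54.3 to 63.1 FPKM. Cnot3 itself was at 39.0 and 40.3 FPKM against 41.6 and 39.3 FPKM, and since the labels do not say which exons are flanked, this whole-gene value does not check the genotypes. Pro-B genes such as Dntt and Blnk were present in all libraries (216 to 255 and 162 to 181 FPKM). Markers of plasmacytoid dendritic cells were present too, led by Bst2 at 2539 to 3306 FPKM. Of 12 pro-B and pre-B markers, only Dntt and Blnk had positive log2 fold changes (Cnot3 fl/fl over Cnot3 +/+), and 10 were negative. The summed level of these 12 markers was 843 and 815 against 1071 and 1455 FPKM, which includes the abundant Dntt and Blnk. Their median log2 fold change was -1.13, and 8 of the 12 were more than 2-fold lower in mean FPKM. Vpreb1 had the lowest log2 fold change, at 9.89 and 7.21 against 65.3 and 131.9 FPKM. Of these 12 markers 6 fell and 0 rose. The summed level of 12 plasmacytoid dendritic cell markers was 8853 and 10597 against 10045 and 10017 FPKM, with 1 risen and 1 fallen. That of 8 classical dendritic cell markers was 2477 and 3016 against 1511 and 1598 FPKM. Most of the latter sum was H2-Ab1 alone, at 1983 and 2467 against 1055 and 1173 FPKM. Of the 7 classical markers tested 3 rose and 1 fell. Summed neutrophil and monocyte markers ranged from 213 to 283 FPKM in Cnot3 fl/fl and from 208 to 285 FPKM in Cnot3 +/+ libraries, with 3 of 13 tested risen, and summed T and NK cell markers from 1053 to 1323 and from 1020 to 1133 FPKM, with 2 of 13 risen. For erythroid and megakaryocyte markers the sums were 23.1 and 39.9 against 29.8 and 64.3 FPKM, and neither of the 2 tested passed. For comparison with these marker counts, 6.22% of all genes tested rose and 3.28% fell (limma, adjusted p under 0.05). The part of these cell types in the differences below was not tested. In sorted bulk RNA, fewer cells of a type and less RNA per cell cannot be told apart.

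The numbered Zfp genes were mostly of modest level. The most abundant was Zfp207, which encodes a spindle and kinetochore protein that binds Bub3, at 76.3 and 78.3 against 81.5 and 74.4 FPKM. It was followed by Zfp740, Zfp217, Zfp106, Zfp414 and Zfp362, with genotype means between 32.2 and 47.7 FPKM. Levels ran over a wide range, with 27 members over 20 FPKM, 85 between 5 and 20 FPKM and 99 under 5 FPKM. KRAB genes were the lower part of this range, with a median of 2.81 FPKM against 10.3 FPKM for members without a KRAB box. The highest KRAB genes were Zfp658 at a mean of 25.4 FPKM, Zfp810 at 18.7 FPKM and Zfp445, which protects imprinting marks, at 18.5 FPKM. Just inside the threshold of 1 FPKM lay Zfp770, Zfp455 and Zfp867 at 1.00, 1.03 and 1.04 FPKM, and just outside it Zfp239, Zfp939 and Zfp827 at 0.982, 0.908 and 0.826 FPKM. Of the 75 numbered Zfp genes under the threshold, 14 were listed at 0 in every library and 5 reached 1 FPKM in some library.

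Few numbered Zfp genes differed between the genotypes. Zfp575, Zfp467 and Zfp516 rose in Cnot3 fl/fl libraries, Zfp428, Zfp658, Zfp664 and Zfp706 fell, and 204 of the 211 members did not pass (limma on log2(FPKM + 1) over 11017 genes, adjusted p under 0.05). That is 3.32% of the members, where 9.49% of all genes tested were called, 6.22% higher and 3.28% lower. The fitted log2 fold changes of the members lay between -1.09 and 1.00, and only Zfp575 on the higher side and Zfp428 and Zfp868 on the lower side differed by more than 2-fold in mean FPKM. With any 1 library left out, limma called 0 members, with 4 to 12 members higher and 8 to 36 lower at an unadjusted p under 0.05. All genes were then called in 2 to 31 cases only, and an exact permutation test of 2 against 2 libraries cannot go below p = 0.333 for a single gene.

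**Figure D1:**
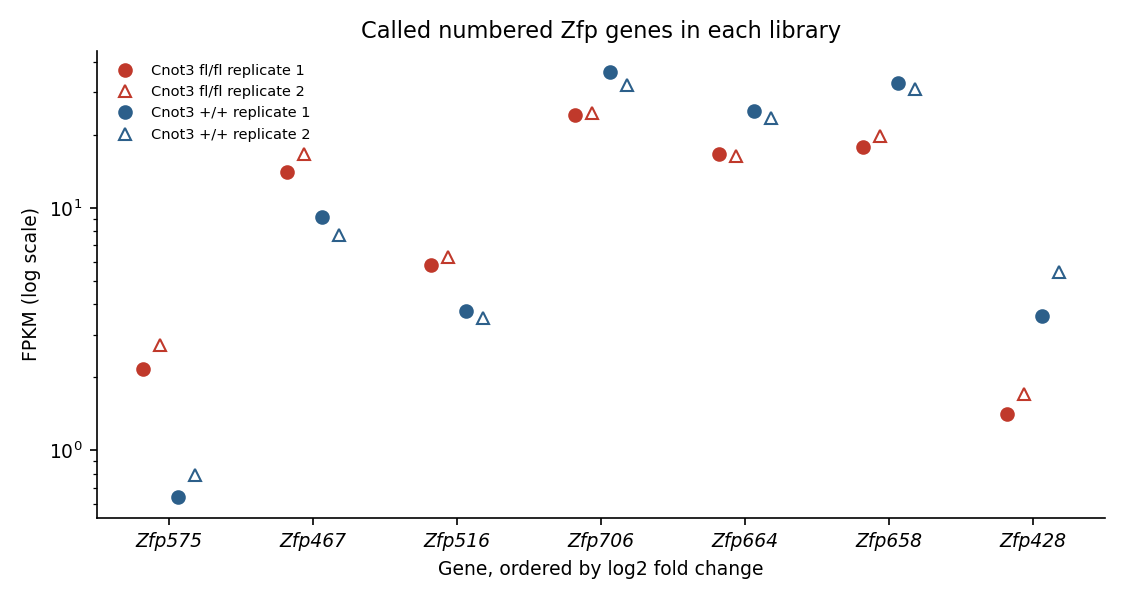
FPKM (log axis) of the 7 called numbered Zfp genes in each of the 4 libraries, red for Cnot3 fl/fl and blue for Cnot3 +/+, circles for replicate 1 and triangles for replicate 2. In each gene both red points lie on one side of both blue points.

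Among the genes that rose, Zfp575 was at 2.16 and 2.72 against 0.642 and 0.791 FPKM. Its mean was 3.41-fold higher (log2 fold change 1.00, standard error, SE, 0.17, limma adjusted p = 0.042), but the gene passed the level threshold only through its Cnot3 fl/fl libraries. Zfp467, a factor that favours fat over bone formation in marrow stromal cells, was at 14.1 and 16.7 FPKM against 9.22 and 7.73 FPKM. It rose 1.82-fold, with means of 15.4 ± 1.89 against 8.47 ± 1.06 FPKM (SD, 2 mice per genotype; log2 fold change 0.79, limma adjusted p = 0.042). Zfp516, which activates brown-fat genes, was at 5.79 and 6.28 FPKM against 3.77 and 3.50 FPKM, a log2 fold change 0.60, SE 0.11 (limma adjusted p = 0.046). None of the 3 encoded a KRAB box by the pattern used. With the replicate number as a block in the model, these 3 calls were lost (0 members higher), and 3 of the 4 lower calls were kept. Over all genes tested the block left 456 higher and 270 lower calls, from 685 and 361.

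Among the genes that fell, Zfp658, whose human counterpart binds a zinc-responsive promoter element, had the smallest adjusted p among the members. It was at 17.8 and 19.8 against 32.7 and 31.1 FPKM, 1.70-fold lower with means of 18.8 ± 1.39 against 31.9 ± 1.18 FPKM (SD, 2 mice per genotype; log2 fold change -0.73, limma adjusted p = 0.034). The spread within each genotype was small beside the difference. It encodes 21 fingers, and no 50-base window of its coding sequence occurs in the transcripts of another gene. Zfp664 was at 16.6 and 16.5 FPKM against 25.1 and 23.4 FPKM (log2 fold change -0.53, SE 0.08, limma adjusted p = 0.040). Zfp706, a small single-finger protein, was at 24.1 and 24.6 FPKM against 36.5 and 32.2 FPKM (log2 fold change -0.48, limma adjusted p = 0.046). Its value is uncertain, because 92.3% of the 50-base windows of its coding sequence also occur in another annotated gene, Gm10193. Zfp428 was at 1.41 and 1.70 FPKM against 3.59 and 5.42 FPKM, 2.90-fold lower in mean (log2 fold change -1.09, SE 0.21, limma adjusted p = 0.046).

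In the files' mm9 locus column, where it is not stated whether starts count from 0 or 1, Zfp428 spans chr7:25292105-25300701 and Zfp575 chr7:25368856-25393944. These 2 genes, which moved in opposite directions, lie 68.2 kb apart. Zfp658 spans chr7:50817739-50830831, Zfp664 chr5:125343074-125369000, Zfp706 chr15:36926781-36937157, Zfp467 chr6:48377690-48395824 and Zfp516 chr18:83080270-83174706. In the authors' deposited table Zfp516 (q = 0.035), Zfp658 (q = 0.0079), Zfp428 (q = 0.038) and Zfp868 (q = 0.020) were the 4 members marked as significant, 1 higher and 3 lower, where that table marked 4.05% of the genes tested here as higher and 2.59% as lower. It did not mark Zfp467, Zfp575, Zfp664 or Zfp706 (q = 0.053, 0.19, 0.076 and 0.12).

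Of the members that did not pass, Zfp868 and Zfp692 had the largest differences downwards among those without overlap between the genotypes. Zfp868 was at 3.91 and 4.28 against 11.1 and 5.70 FPKM, so the Cnot3 +/+ libraries differed from each other more than replicate 2 did from the Cnot3 fl/fl pair (log2 fold change -0.82, limma adjusted p = 0.13). Zfp692 was at 8.36 and 6.29 FPKM against 12.5 and 13.1 FPKM (log2 fold change -0.74) and lay at the threshold itself, with a limma adjusted p of 0.05001. In the other direction, Zfp579 was at 19.5 and 17.5 against 15.9 and 10.1 FPKM (log2 fold change 0.51, limma adjusted p = 0.18) and Zfp296 at 13.7 and 16.3 against 11.1 and 10.1 FPKM (log2 fold change 0.46, limma adjusted p = 0.074).

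**Figure D2:**
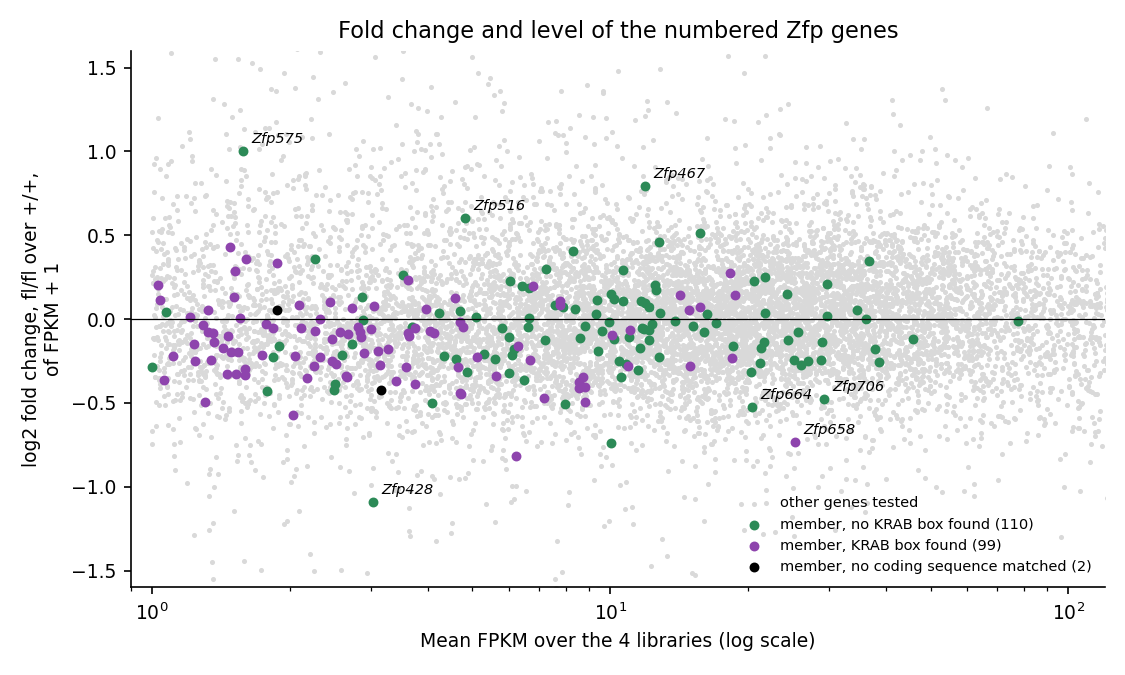
Log2 fold change of Cnot3 fl/fl over Cnot3 +/+ on the log2(FPKM + 1) scale against mean FPKM (log axis), with each of the 211 members as a coloured point, 99 with a KRAB box, 110 with none found and 2 with no coding sequence matched. Other genes tested are grey, those beyond the axes are not drawn, and the 7 called members are named; more members lie below the line at 0 (142) than above it (69).

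Taken over all 211 members, the fitted difference was negative in 142 (67.3%) and positive in 69, where it was negative in 51.0% of all genes tested and in 55.9% of those under 5 FPKM, with a median log2 fold change of -0.09 against -0.01 over all genes tested. The libraries of the genotypes did not overlap in 79 members with Cnot3 fl/fl lower (37.4%) and in 36 with it higher (17.1%), where the shares of all genes tested were 31.7% and 32.7%. At an unadjusted p under 0.05, 28 of the 211 members were lower and 8 higher, where 15.3% of all genes tested were lower and 18.5% higher. Over the 204 members whose genotype means were both at least 1 FPKM, the median was also -0.09, with 2 higher and 4 lower calls. The other 7 passed the threshold through 1 genotype.

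The lean to lower values was larger against Cnot3 +/+ replicate 1 than against replicate 2. Both Cnot3 fl/fl libraries lay below Cnot3 +/+ replicate 1 in 135 members (64.0%), but below Cnot3 +/+ replicate 2 in 86 (40.8%), where the shares over all genes tested were 42.8% and 41.9%. They lay above Cnot3 +/+ replicate 1 in 42 members (19.9%) and above Cnot3 +/+ replicate 2 in 71 (33.6%), against 41.5% and 42.4% of all genes tested. Cnot3 +/+ replicate 1 (Ddx3y present, lowest relative depth) held the highest of the 4 values in 115 members (54.5%), compared with 28.5% of all genes tested and 30.1% of those under 5 FPKM. This was not particular to the members. The same library was highest in 27 of 53 tested Zfp genes with 1 or 2 digits or a letter suffix. It was also highest in 22 of 38 Zbtb, 7 of 17 Zkscan and Zscan and 1 of 10 Klf genes. Cnot3 +/+ replicate 1 exceeded Cnot3 +/+ replicate 2 in 163 of 211 members. The summed FPKM of the members was 1851 and 1873 in Cnot3 fl/fl and 2066 and 1898 in Cnot3 +/+ replicates 1 and 2, which is 0.457%, 0.428%, 0.484% and 0.432% of all FPKM in these libraries. Without Cnot3 +/+ replicate 1 the median log2 fold change of the members was -0.025, with 0 over all genes tested, and without Cnot3 +/+ replicate 2 it was -0.17. The part of sex or depth in this was not tested.

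**Figure D3:**
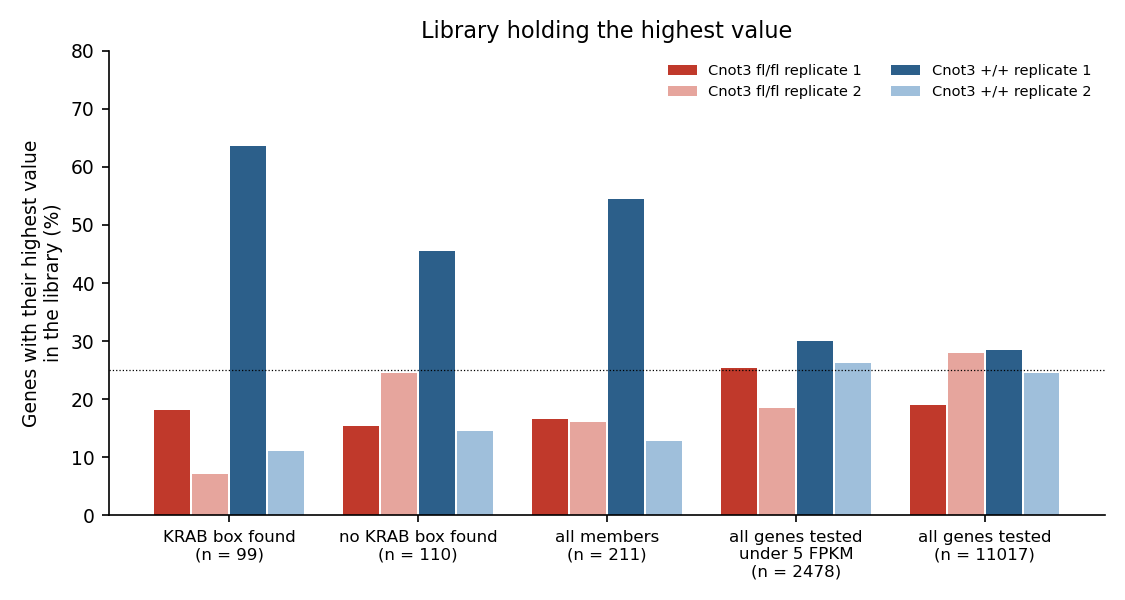
Share of genes (percent) whose highest of 4 values lay in each library, for members with and without a KRAB box, all members, all genes tested under 5 FPKM and all genes tested, with a dotted line at equal shares. Cnot3 +/+ replicate 1 held the highest value in 63.6% of KRAB genes and 28.5% of all genes tested.

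KRAB genes varied between libraries of the same genotype. Cnot3 +/+ replicate 1 exceeded replicate 2 in 85 of 99 KRAB genes, with a median difference of 0.19 on the log2(FPKM + 1) scale, and Cnot3 fl/fl replicate 1 exceeded replicate 2 in 75, with a median difference of 0.13. The latter lean lay in the KRAB genes under 5 FPKM, with 63 of 74 (median 0.16), and not in those at 5 FPKM or more, with 12 of 25 (median -0.01), and 60.5% of all genes tested under 5 FPKM had it too. Cnot3 +/+ replicate 1 exceeded replicate 2 in 64 of the 74 and in 21 of the 25, where 52.5% and 54.1% of all genes tested at these levels did so. Their median log2 fold change between the genotypes was -0.12, and 1 of them was called, Zfp658. In the 110 members without a KRAB box the corresponding median differences were 0.06 and -0.02, the median log2 fold change was -0.05, and 3 rose and 3 fell. The summed FPKM of the KRAB genes was 441 and 409 in Cnot3 fl/fl and 525 and 445 in Cnot3 +/+ replicates 1 and 2, so 1 library stood above the other 3. The KRAB gene Zfp605, chosen after its values were seen, was at 6.16 and 3.09 against 6.66 and 2.90 FPKM, so replicate 1 lay above replicate 2 in both genotypes. Both KRAB genes and members with none found were lower in Cnot3 fl/fl more often than higher, 74 of 99 (74.7%) and 67 of 110 (60.9%) by the sign of the fitted difference. Whether the 2 kinds of gene differ was not tested, and the KRAB genes are also the less abundant.

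Medians were lower among members with 10 or more fingers than among those with fewer, a difference that was not tested. Members with 15 or more fingers had a negative fitted difference in 31 of 36 cases (86.1%) and a median log2 fold change of -0.18, those with 10 to 14 a median of -0.15, those with 5 to 9 a median of -0.05 and those with 1 to 4 a median of -0.07. The highest value lay in Cnot3 +/+ replicate 1 in 27 of the 36 genes with 15 or more fingers, in 40 of 68, in 30 of 67 and in 15 of 33 in the same order. Of the same 36 genes, both Cnot3 fl/fl libraries also lay below Cnot3 +/+ replicate 2 in 19 (52.8%) and above it in 8 (22.2%), and the genotypes did not overlap in 19 with Cnot3 fl/fl lower and in 2 with it higher. Zfp142, the gene with the most fingers, was at 4.74 and 5.74 FPKM against 6.54 and 7.03 FPKM (log2 fold change -0.32, limma adjusted p = 0.16). Gene level also changed with the number of fingers, from a median of 11.7 FPKM at 1 to 4 fingers to 2.94 FPKM at 15 or more, so these descriptions overlap.

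Among the tested members listed here for a role outside the KRAB system, 1 passed the test. With 2 mice per genotype, this does not show that the others were equal. Zfp467, called above, was in none of these lists. Of 9 tested genes that act on RNA or ribosomes, none passed, and the median log2 fold change was -0.01. Without overlap between the genotypes 3 were lower (33.3%) and 0 higher, where the shares of all genes tested were 31.7% and 32.7%. Zfp326, a subunit of the DBIRD complex that couples elongation with splicing, had the largest difference, at 6.78 and 6.03 against 8.79 and 10.3 FPKM (log2 fold change -0.51, limma adjusted p = 0.068). Zfp598, the ubiquitin ligase that marks collided ribosomes, was at 27.9 and 27.2 against 30.97 and 29.9 FPKM (log2 fold change -0.14). Zfp106, an RNA-binding protein, was at 35.9 and 34.9 against 40.4 and 39.9 FPKM, and in both genes the genotypes did not overlap although neither passed. Zfp622 and Zfp593, which act in maturation of the large ribosomal subunit, had log2 fold changes of 0.21 and 0.04 with standard errors of 0.17, and Zfp346, which binds double-stranded RNA, had -0.07. Zfp207 and Zfp830, a splicing-associated protein, had -0.01 and 0.09. Zfp473, which acts in histone pre-mRNA processing, was under the threshold.

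Of 6 tested members with a role in lymphocytes, none passed. Without overlap between the genotypes 2 were lower (33.3%) and 0 higher, where the shares of all genes tested were 31.7% and 32.7%. Zfp318, which is needed for the alternative processing that yields IgD in mature B cells, was at 6.85 and 6.90 against 7.03 and 4.85 FPKM (log2 fold change 0.20, limma adjusted p = 0.47). Zfp521, which antagonises the B-lineage factor Ebf1, was at 3.63 and 4.98 against 3.83 and 4.47 FPKM (log2 fold change 0.03), while Ebf1 itself was at 5.58 and 5.83 against 12.01 and 25.7 FPKM (limma adjusted p = 0.065). Zfp423, another partner of Ebf1, was at 0 in 3 libraries and 0.011 FPKM in Cnot3 +/+ replicate 1. Zfp335, which is needed for T-cell maturation, was at 22.5 and 24.6 against 30.0 and 27.4 FPKM (log2 fold change -0.27, limma adjusted p = 0.12), and Zfp384, a fusion partner in B-cell leukaemia, at 22.6 and 24.0 against 24.9 and 26.2 FPKM. Zfp608 and Zfp609, a pair of related genes that act on Rag expression in thymocytes, had log2 fold changes of 0.03 and 0.01 with standard errors of 0.08 and 0.11.

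**Figure D4:**
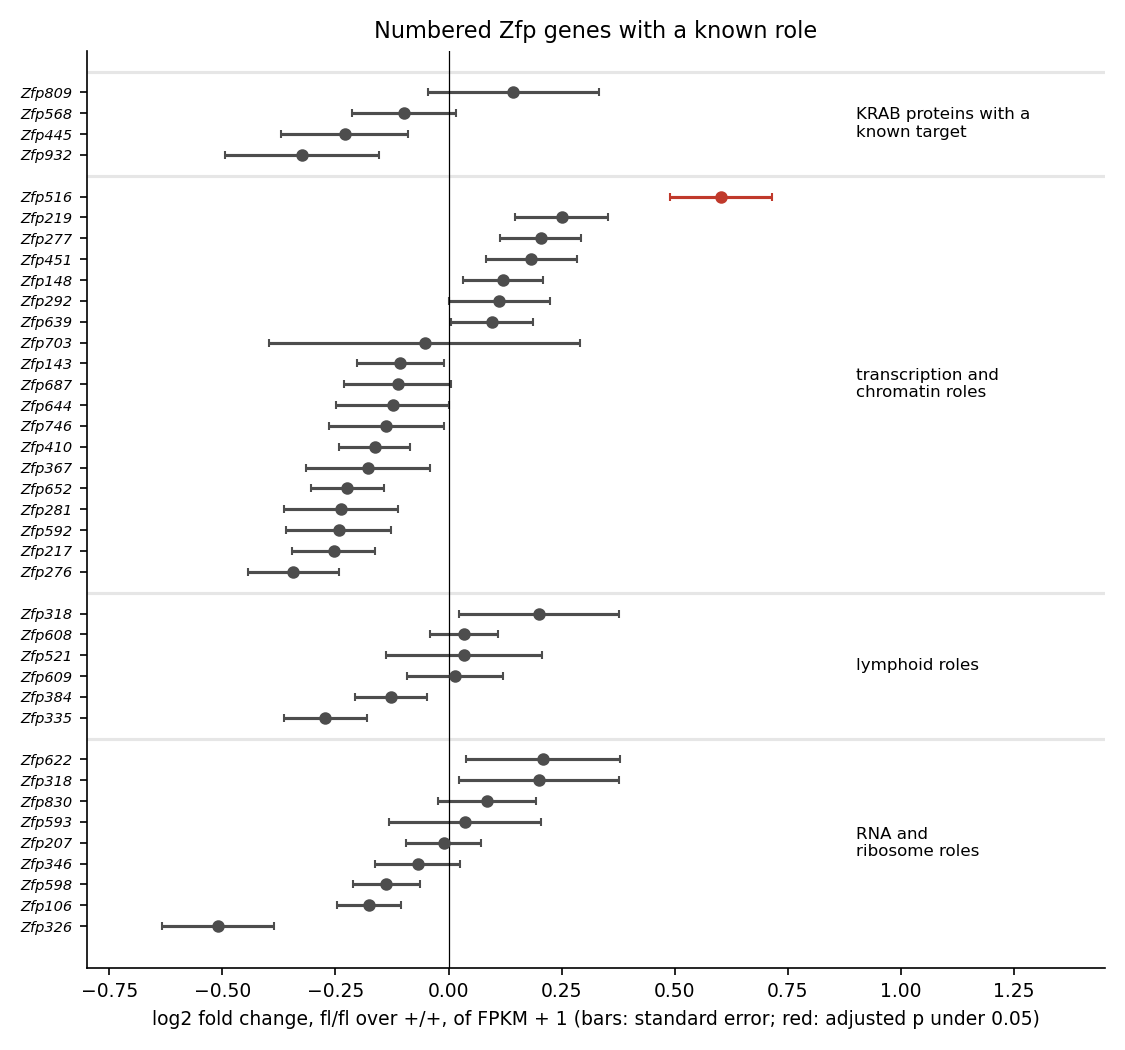
Log2 fold change of Cnot3 fl/fl over Cnot3 +/+ on the log2(FPKM + 1) scale, with its standard error, for the tested members of 4 lists of genes with a known role; Zfp318 stands in 2 lists. Zfp516 is the only one past the threshold (red), and Zfp326 lies lowest at -0.51.

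Of 19 tested members with a role in transcription or chromatin, 1 rose (Zfp516), none fell and 18 did not pass, with a median log2 fold change of -0.11. The genotypes did not overlap in 6 of the 19 with Cnot3 fl/fl higher (31.6%) and in 7 with it lower (36.8%). The shares of all genes tested were similar, 32.7% and 31.7%. Zfp276 had the largest difference downwards in this list, at 9.51 and 8.88 against 12.6 and 11.3 FPKM (log2 fold change -0.34, limma adjusted p = 0.093). Zfp217, a partner of the CtBP corepressor, was at 35.1 and 35.2 against 45.0 and 39.4 FPKM (log2 fold change -0.25, limma adjusted p = 0.14). Zfp592 and Zfp687, which belong to one zinc-finger complex, had log2 fold changes of -0.24 and -0.11, and the pluripotency factor Zfp281 had -0.24. Zfp143, an activator of small nuclear RNA genes, had -0.11. On the higher side without passing were Zfp219 with 0.25, Zfp277 with 0.20, the SUMO ligase gene Zfp451 with 0.18 and Zfp148 with 0.12. Zfp410, an activator of the chromatin remodeller gene Chd4, was at 17.3 and 17.5 against 20.1 and 19.1 FPKM (log2 fold change -0.16), and Chd4 was at 116.8 and 109.5 against 94.0 and 88.4 FPKM (log2 fold change 0.31, limma adjusted p = 0.080).

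None of the 4 tested KRAB genes with a known target passed. Zfp445 was at 18.2 and 15.6 against 22.2 and 17.8 FPKM (log2 fold change -0.23). Zfp809, which silences retroviral DNA, was at 14.6 and 15.0 against 16.2 and 10.9 FPKM (log2 fold change 0.14), so its 2 Cnot3 +/+ libraries lay on either side of the Cnot3 fl/fl pair. Zfp568, which represses a placental Igf2 promoter, was at 3.55 and 3.42 against 3.82 and 3.78 FPKM. Zfp932 was at 1.28 and 1.08 against 1.95 and 1.53 FPKM, and 55.55% of the 50-base windows of its coding sequence also occur in Gm15446. Of 21 tested genes of the machinery that KRAB proteins recruit, 1 rose, 1 fell and 19 did not pass, with a median log2 fold change of -0.04. The share called, 9.52%, was near the 9.49% of all genes tested. Trim28, the corepressor that binds the KRAB box, was at 106.3 and 111.3 against 107.2 and 123.0 FPKM, and Setdb1 at 19.3 and 19.2 against 20.3 and 19.6 FPKM. The remodeller gene Chd3 rose (47.5 and 41.2 against 30.7 and 30.6 FPKM, log2 fold change 0.52, limma adjusted p = 0.045), and Cbx1, which encodes an HP1 protein, fell (29.3 and 28.4 against 39.1 and 39.7 FPKM, log2 fold change -0.44, limma adjusted p = 0.042).

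Members lay on 19 chromosomes, 58 of them on chromosome 7 and 23 on chromosome 17. When members less than 250 kb apart in mm9 were joined, 89 fell into 18 runs of at least 3 genes, and 63 of the 87 genes with a coding sequence in these runs encoded a KRAB box. The members in runs and those outside them had similar medians, -0.09 and -0.08, with 1 rise and 1 fall in runs and 2 rises and 3 falls outside. Zfp467 and Zfp658 were the called genes in runs.

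Every member had a negative fitted difference in 5 of the 18 runs and a positive one in 1, and in 2 of the 5 no member overlapped between the genotypes. Over all genes tested 31.7% were lower and 32.7% higher without overlap. In a run of 4 KRAB genes at chr9:20149579-20399637 (mm9), Zfp560, Zfp426, Zfp266 and Zfp846, the genotypes did not overlap in any gene and Cnot3 fl/fl was the lower, with summed levels of 15.9 and 13.6 against 20.8 and 19.6 FPKM. Log2 fold changes in this run ranged from -0.44 to -0.19 and none passed, the nearest being Zfp426 at 7.69 and 6.70 against 9.88 and 9.87 FPKM (limma adjusted p = 0.075). The 4 genes Zfp868, Zfp869, Zfp963 and Zfp866 at chr8:72134552-72298810 (mm9) were also all lower without overlap, with summed levels of 22.5 and 24.4 against 35.1 and 31.3 FPKM. Each of these 4 shares sequence with another gene. Of the 50-base windows of Zfp963 80.8%, and of those of Zfp866 18.4%, occur in the annotated gene Gm20422. Zfp868 and Zfp869 share windows with each other. Reads could be split between such genes, which was not tested. In a run of 6 KRAB genes at chr17:32902441-33170326 (mm9), from Zfp871 to Zfp763, 4 genes were lower without overlap and the median was -0.38. By contrast, a run of 6 genes at chr7:4866818-5005325 (mm9), from Zfp628 to Zfp580, held no KRAB gene and had a median of 0.18, with 3 genes higher and 1 lower without overlap. The largest run, 10 KRAB genes at chr13:67139529-67931922 (mm9), had a median of -0.05 and summed levels of 21.9 and 21.7 against 23.8 and 20.4 FPKM, which overlap. These runs were singled out after their values were seen, and neighbouring genes are not independent.

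**Figure D5:**
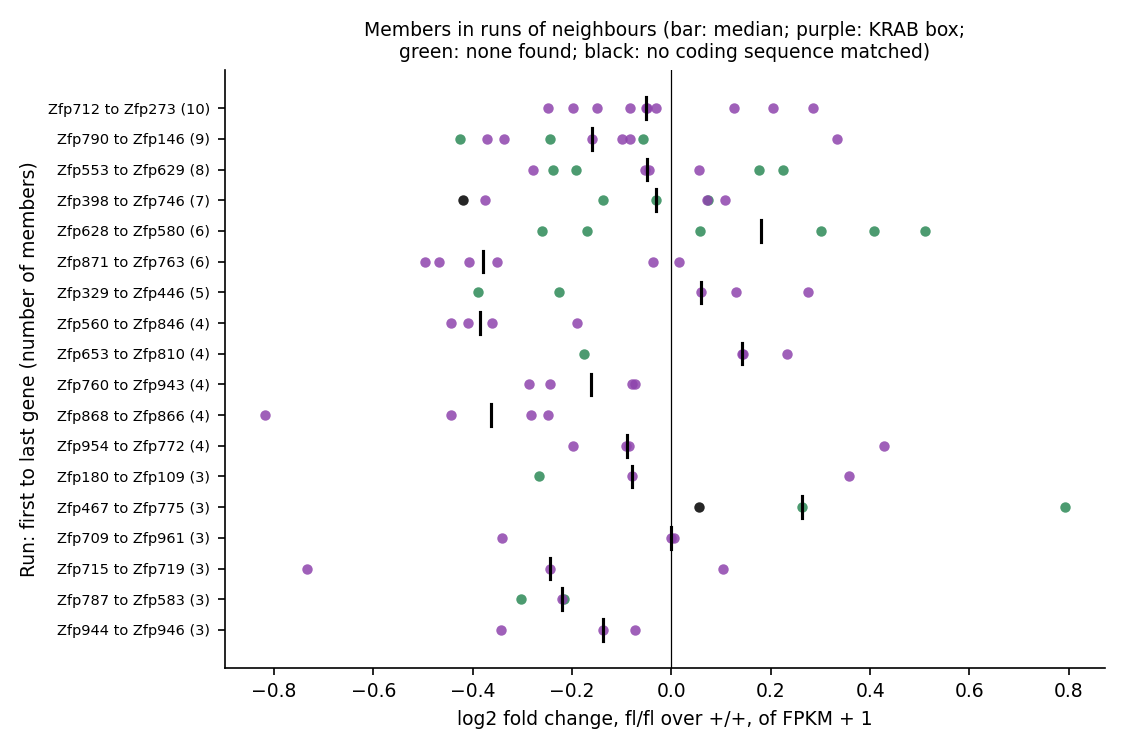
Log2 fold change of Cnot3 fl/fl over Cnot3 +/+ on the log2(FPKM + 1) scale for the 89 members in 18 runs of neighbouring genes, 1 row per run named by its first and last gene, with a bar at the median. The runs starting with Zfp560, Zfp868, Zfp760, Zfp787 and Zfp944 lie wholly below 0, and the run from Zfp467 to Zfp775 wholly above it.

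Shared sequence limits some of these values. In 134 members no 50-base window of the coding sequence occurred in another gene's transcripts, and in 26 members at least 10% did. The latter had a negative fitted difference in 21 of 26 cases and a median log2 fold change of -0.06, and the former in 84 of 134 with a median of -0.08. Other groups of zinc-finger genes are given by their counts, and whether they differ from the members was not tested. Of 53 tested Zfp genes with 1 or 2 digits or a letter suffix, 1 fell, 0 rose and the median was -0.10. Of 38 Zbtb genes 3 rose and 0 fell, with a median of -0.14, of 17 Zkscan and Zscan genes 0 rose and 1 fell, with a median of 0.04, and of 10 Klf genes none passed, with a median of -0.07. The shares called were 1.89%, 7.89%, 5.88% and 0% in the same order, where 9.49% of all genes tested were called. Without overlap, Cnot3 fl/fl was lower in 26.4%, 47.4%, 23.5% and 0% and higher in 11.3%, 10.5%, 5.88% and 20%. The shares of all genes tested were 31.7% and 32.7%.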

How the data were processed

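The authors deposited 1 table of FPKM values per library and a comparison table with FPKM per genotype, p-values and q-values, per the file headers. Cuffnorm 2.2.1, Cufflinks 2.2.1, TopHat2 2.0.13, Bowtie2 2.2.3.0, bcl2fastq 1.8.4 and build mm9 are listed in the submitters' processing notes. Which tool did what, the annotation and whether counting used strand were not given in the sources used here. Libraries were made with a stranded mRNA kit, per the labels' protocols. FPKM are not counts, so no count test was run. Values were transformed to log2(FPKM + 1), which understates changes of low genes, and the 11017 genes averaging 1 FPKM or more were tested for genotype with limma 3.58.1 in R 4.3.3 (eBayes with a trend, two-sided, Benjamini-Hochberg over all genes, 2 residual and 2.69 prior degrees of freedom). The test was checked on simulated data. Folds in words are ratios of mean FPKM, and errors are SD unless named. Coding sequences were read with Biopython 1.88. The members, lists and naming rule (calls, the 6 most abundant, the 2 largest uncalled differences each way, list members, threshold neighbours) were chosen with earlier results of these data known. The p-values rest on the spread between 2 mice per genotype and, through the prior, on the spread of other genes of similar level.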

Additional observations from a re-analysis of the deposited data

How the results depend on the processing

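All 7 called genes kept their direction under every alternative in which they were tested, and only their side of the threshold moved. The genotypes do not overlap in these genes, so most alternatives could not reverse the direction. These are a library left out and a changed filter, pseudocount, variance trend or block. Only a rescaling of the libraries (quantile normalization or equal median ratio) could, and all 7 kept their direction there. With no filter on low values 0 members were higher and 0 lower (limma, 16296 genes tested, 9 and 23 at an unadjusted p under 0.05). With a minimum of 5 FPKM 1 was higher and 4 lower of the 112 members left. Without the variance trend 1 was higher and 1 lower (Zfp575 and Zfp658). Calls changed over all genes tested too, to 0.0307%, 12.2% and 2.82% in the same order, from 9.49% in the main test. The causes were not tested, except that more genes were tested with no filter and fewer members with the higher minimum. Leaving out 1 library at a time gave 0 to 0 higher and 0 to 0 lower calls and a median log2 fold change of the members between -0.17 (without Cnot3 +/+ replicate 2) and -0.025 (without Cnot3 +/+ replicate 1), against -0.09 with all 4. Zfp692 passed under 5 alternatives. With the replicate block, 0 members were higher and 3 lower (limma, 8 and 29 at an unadjusted p under 0.05). Of all genes tested 6.59% were then called. The labels do not say that a number pairs mice; the within-genotype differences of the 2 genotypes had a correlation of 0.39 across the members and 0.14 across all genes tested, which are not independent. The depth of the libraries is unknown, and for the 99 members under 5 FPKM it limits what could be detected.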
